A study of Mus musculus with 112 samples.

Results

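NRF2 is the transcription factor that switches on the cellular defence against oxidants and electrophiles. Its partner KEAP1 hands it to the proteasome in unstressed cells, and oxidants release it to pair with small MAF proteins on the antioxidant response element (ARE), a short motif near the start of its target genes. Those targets make and recycle glutathione and thioredoxin, supply NADPH, conjugate and export foreign compounds, and handle heme and iron. DNA methylation (DNAme) of 43 genes listed as NRF2 targets was examined here, out of 21938 protein-coding genes. All CpG positions from 2 kb before the start of each gene to its end on the mm10 build were taken, which gave 4929 of the 4388579 positions that held a value in any library. Of these, 190 lay upstream, 1509 within 1 kb of the gene start (the promoter) and 3230 in the rest of the gene (the body). The windows of Ugt1a6a, Ftl1, Sod1, Blvrb, Idh1, Cbr1, Sqstm1, Txnrd1 and Gpx2 also hold all or part of other coding genes. Positions shared with those genes were counted for the member.

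Reduced representation bisulfite sequencing, which reads CpG-rich fragments cut by MspI and TaqI, had been run on 112 libraries of 13 groups. F0 sperm came from C57BL/6J wild type (WT) males left unexposed (10 libraries, control WT), given cigarette smoke (CS) exposure (9 libraries, smoked WT) or given CS and then kept without CS for 3 successive intervals between 28 and 171 days (recovery 1, n = 9, recovery 2, n = 10, and recovery 3, n = 10). Nrf2-/- males, which lack NRF2 in the whole body from conception, were unexposed (control Nrf2-/-, n = 10) or CS-exposed (smoked Nrf2-/-, n = 9). From the F1 generation there was sperm of 6 sons of control WT and 7 sons of smoked WT males, and brain (prefrontal cortex) of 8 sons for each of 4 kinds of sire, WT or Nrf2-/-, unexposed or smoked. All sons had CAST/EiJ mothers, so a cytosine that differs in that strain can shift their percent, and sons of Nrf2-/- sires carried 1 targeted allele. The labels give no ages.

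Each library held values at 510212 to 1855546 positions, and the reads behind a percent are unknown. The genotype labels matched the targeted gene: at 4 positions in the last coding exon of Nfe2l2, the gene of NRF2, 48 of 48 WT F0 sperm libraries held a value against 0 of 19 Nrf2-/- libraries. Promoters of maternally methylated imprinted genes, which are unmethylated in sperm, had a mean of at most 4.93% in every F0 sperm library, and all 8 that could be scored stayed below 5% in each group. The same promoters reached medians of 21.2%, 24.9% and 22.4% in brain of sons of control WT, smoked WT and control Nrf2-/- sires but 14.1% in sons of smoked Nrf2-/- sires, and the part of this in the brain results was not tested. In somatic tissue the maternal copy is methylated and the paternal copy is not. Every brain median lay below an equal mix of both copies. In the facility's numbering, WT and Nrf2-/- F0 libraries form separate runs (21 to 70 and 1 to 20), as do brain libraries by sire genotype. Genotype, mouse colony and numbering run cannot be told apart.

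Part of the members could be scored. A position was used when at least 4 libraries of each group compared had a value, and a segment (upstream, promoter or body) when it held at least 3 such positions. In F0 sperm 1288 member positions passed, and 35 of 43 members had a tested segment, 24 of them a promoter. The sparser F1 sperm libraries gave 29 members, and the brain libraries 38, of which 25 had a promoter. Gpx2, Gsta1, Gsta3, Gstm3 and Mgst1 had no tested segment in any set. The window of 1 kb on either side of the start held a median of 81 CpGs (26 to 151) in the 24 promoters tested in F0 sperm and of 26 CpGs (13 to 51) in the other 19, among them Nqo1, the textbook NRF2 target. The median over all coding genes was 61 CpGs. In 7 members (Ephx1, Osgin1, Gsta4, Gpx4, Txnrd1, Aldh3a1 and Cbr1) the gene record starts more than 1 kb before the principal transcript, so that transcript's own start lies in the body as counted here. All 7 are among the 19, so their CpG counts were not taken around the principal start. Around that start Gpx4 had 69, Txnrd1 27, Cbr1 20 and Ephx1 5 usable cytosines in F0 sperm.

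Promoters of the NRF2 targets were mostly low in DNAme in F0 sperm, as were those of other genes. In control WT F0 sperm 22 of 24 member promoters lay below 5%, with a median of 0.802%, against a median of 0.694% and 92.4% of 13268 promoters below 5% over all genes. Hmox1, which encodes the heme-degrading enzyme heme oxygenase 1, stood at 0.212% ± 0.673 (SD, n = 10). Gclm, the modifier subunit of the enzyme that limits glutathione synthesis, stood at 0.671% ± 0.435 (n = 8), and Srxn1, which repairs overoxidised peroxiredoxins, at 0.530% ± 0.438 (n = 10). The exceptions were Abcc3, an export pump for conjugates, at 6.64% ± 0.885 (n = 10), and Gsr, glutathione reductase, at 9.90% ± 9.65 (n = 10). The principal Gsr transcript starts 715 bp after the gene start used here. The Gsr value rests on 4 cytosines and its libraries were spread from -6.84% to 22.96%. Values below 0 arise because a library's mean was corrected for the cytosines it lacked. No member promoter lay above 20%, compared with 4.06% of all promoters. In F1 sperm of sons of control WT sires, where fewer cytosines could be scored, 12 of 16 member promoters (75%) lay below 5%, against 90.9% of 9967 over all genes. The others there were Sod2 (9.48% ± 1.86, n = 5), Blvrb (10.2% ± 1.31, n = 4), Abcc3 (11.1% ± 1.80, n = 5) and Gclc, the catalytic subunit of the enzyme that limits glutathione synthesis, at 30.1% ± 2.40 (n = 5). The Gclc value rests on 5 cytosines, 3 of them in a region before the gene that stood at 47.4% ± 3.52 (n = 4), while in F0 sperm 40 cytosines gave 3.66% ± 0.719 (n = 9).

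Gene bodies were mostly methylated, and a few members were low. The median of 27 member bodies in control WT F0 sperm was 70.7%, against 75.0% over 13462 genes, and 12 lay above 80%. Me1, malic enzyme, was the highest at 96.4% ± 2.02 (n = 10). The bodies of Catalase (Cat, 96.1% ± 1.38, n = 10) and Gclm (96.0% ± 0.845, n = 10) were close to it. At the other end stood Idh1, a cytosolic NADPH source, at 0.593% ± 0.467 (n = 9), Cbr1, a carbonyl reductase, at 0.771% ± 0.563 (n = 10), and Gpx4, the lipid hydroperoxide peroxidase, at 2.11% ± 0.345 (n = 9). For Cbr1 the 20 cytosines counted as body are those within 1 kb of the principal transcript's start, and for Gpx4 69 cytosines lie there, at 1.55% ± 0.555 (n = 9). Cbr3, the neighbour and relative of Cbr1, had 4.81% ± 3.17 (n = 10) at 4 cytosines near its end. Nqo1, a quinone reductase, could be seen in its body alone, at 85.99% ± 8.08 (n = 10).

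**Figure D1:**
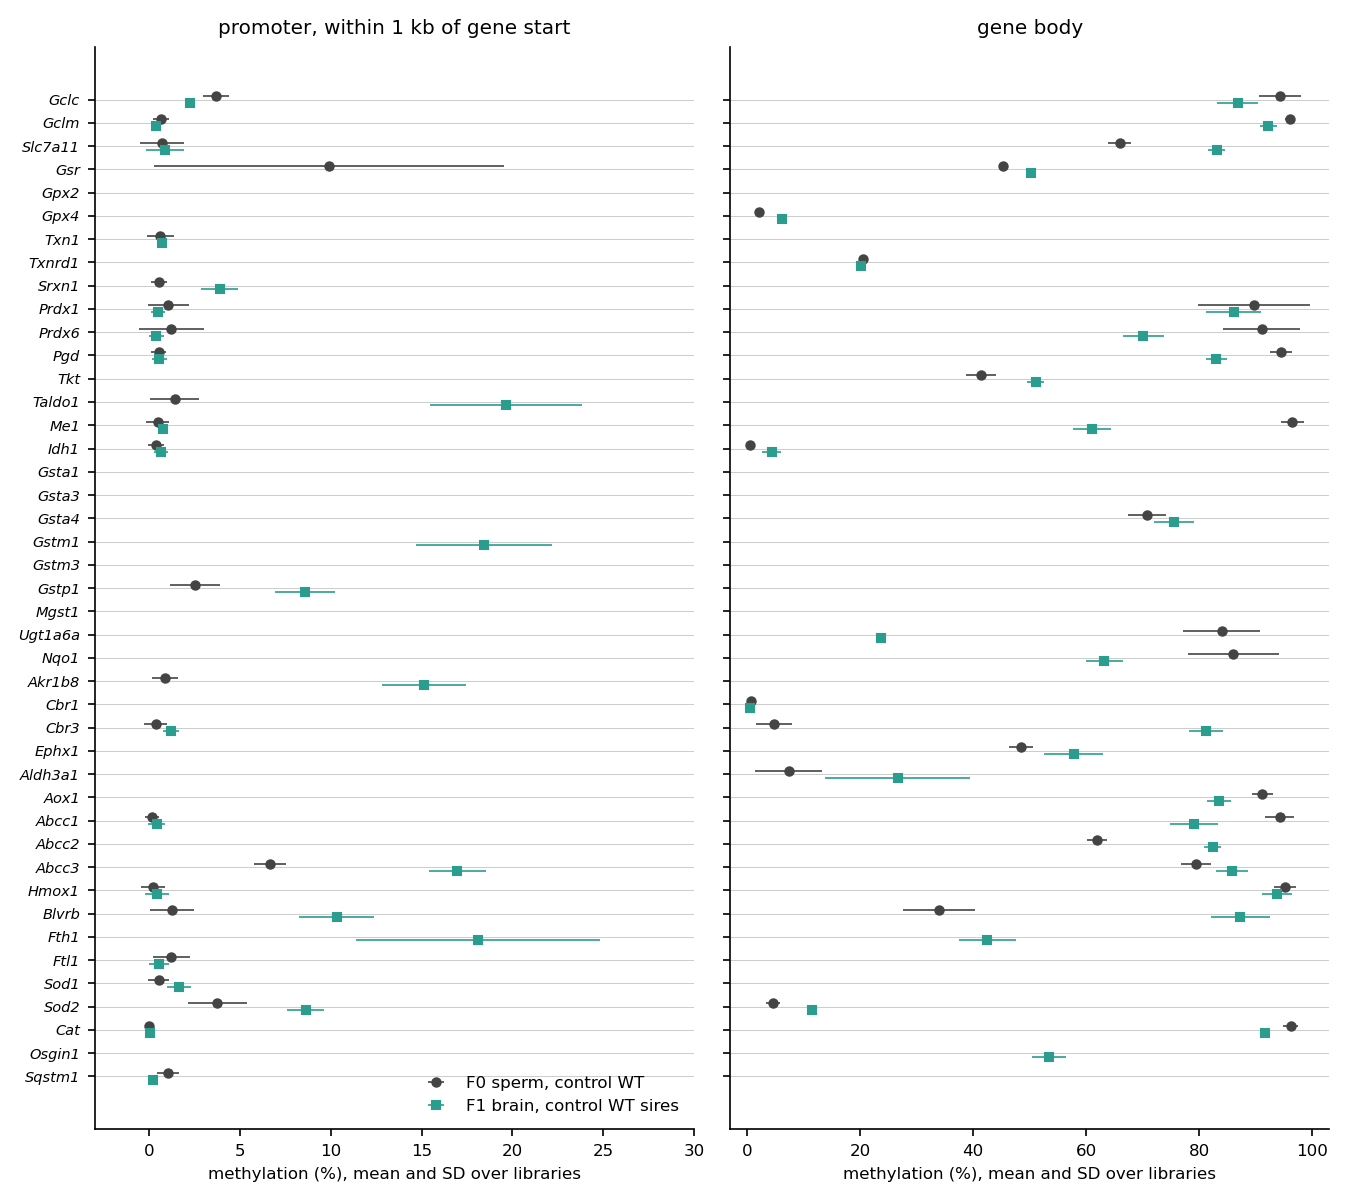
Methylation percent of the promoter (left) and body (right) of each NRF2 target gene, ordered by role, in control WT F0 sperm (circles) and in F1 brain of sons of control WT sires (squares), as mean and SD over libraries; genes without a point were not tested there. Sperm promoters sit below 10%, while bodies span 0.593% to 96.4% in sperm; the 2 tissues were scored at partly different cytosines.

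In brain of sons of control WT sires the promoters were low as well, but with a longer tail. Of 25 member promoters 17 lay below 5% and none above 20%, with a median of 0.897%. Over all genes the median was 0.811%, and of 13864 promoters 80.4% lay below 5% and 10.9% above 20%. The window around the principal start of Osgin1, an oxidative stress-induced growth inhibitor, a start that lies in the body as counted here, stood at 47.4% ± 4.95 (6 cytosines, n = 8). The highest member was Taldo1, transaldolase of the pentose phosphate pathway, at 19.7% ± 4.19 (n = 8). Below it came Gstm1, a glutathione transferase, at 18.4% ± 3.74, the ferritin heavy chain gene Fth1 at 18.1% ± 6.70, Abcc3 at 16.97% ± 1.59 and the aldo-keto reductase Akr1b8 at 15.1% ± 2.30 (n = 8 each). The member bodies had a median of 70.1% over 29 genes, against 70.4% over 14732.

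The ARE core was searched as TGACNNNGC on both strands within 1 kb of the start of each gene record. For the 7 members whose principal transcript starts over 1 kb away, these windows and counts do not cover the surroundings of that start in full. It occurred in 27 of 43 member windows (62.8%) and in 51.9% of the windows of 21911 coding genes, so a match alone does not mark a target. Of 47 member matches, 11 in 9 genes had a usable cytosine within 50 bp. The windows below are read 5′ to 3′ on the gene's strand of the mm10 reference, with the core in capitals. They are matches with a usable cytosine within 50 bp, and NRF2 binding was not measured. A core printed as GCNNNGTCA lies on the other strand.
Gclm, -130 bp from the start, chr3:122245423-122245431: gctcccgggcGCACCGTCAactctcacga
Gsr, -25 bp, chr8:33652494-33652502: acgtttcttaTGACTTAGCagtatttaat
Prdx1, -74 bp, chr4:116685466-116685474: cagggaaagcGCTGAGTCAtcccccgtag
Me1, 37 bp, chr9:86695912-86695920: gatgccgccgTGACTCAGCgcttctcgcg
Cbr3, 51 bp, chr16:93683262-93683270: gccacggtttTGACCACGCgtgacccgct
Sod1, 273 bp, chr16:90221023-90221031: cccgctaagtGCTGAGTCAccgtggcctg
Sod2, 295 bp, chr17:13007137-13007145: cttaccctaaGCCCTGTCAtccttaggag
Sqstm1, -251 bp, chr11:50211074-50211082: ggacgacactGCTGAGTCAtaggcaggcc
Prdx1, Me1, Sod1 and Sqstm1 carry the same 9-base core, 4 of the 11 matches.

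Cytosines beside most of these cores were unmethylated in both tissues. Within 50 bp of the core the level in control WT F0 sperm was 0.201% ± 0.418 at Gclm (11 cytosines, n = 9), 0.339% ± 0.405 at Me1 (21 cytosines, n = 9) and 0.454% ± 0.730 at Cbr3 (15 cytosines, n = 10). In brain of sons of control WT sires it was 0.457% ± 0.273 at Gclm, 0.563% ± 0.451 at Me1 and 0.666% ± 0.794 at Prdx1 (4 cytosines, n = 8). The other matches (Prdx6 at 416 bp, Cbr3 at 688 bp and Sod1 at 212 bp) lay between 0.208% and 2.15% where they were measured. At the second Sod1 core it was 0% at 1 cytosine in sperm (n = 6) and 0.591% ± 0.663 at 7 cytosines in brain. Sqstm1, the autophagy receptor p62, had 3.98% ± 1.43 in sperm and 0.703% ± 0.654 in brain at 2 cytosines. The cores with more DNAme were those of Gsr in sperm (12.4% ± 11.1, 2 cytosines, n = 8) and of Sod2, the mitochondrial superoxide dismutase. The principal transcripts start 715 bp (Gsr) and 971 bp (Sod2) after the gene start used here, so both cores lie before them. At Sod2 the level was 15.6% ± 5.34 in sperm (2 cytosines, n = 10) and 31.1% ± 3.78 in brain (3 cytosines, n = 8).

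The first question was whether CS exposure altered DNAme of these genes in sperm. No member differed by the tests: 0 of 55 member segments and 0 of 77 member regions were called between smoked WT and control WT sperm. A region was a run of usable cytosines no more than 100 bp apart, with at least 3 cytosines and more than 50 bp long. Calls were made with limma at an adjusted p below 0.05 over all segments or all regions, and 0% of 28454 segments and 0.00159% of 62828 regions of the whole genome were called. At an unadjusted p below 0.05, 3 member segments (5.45%) and 5 regions (6.49%) passed, against 4.22% of all segments and 3.95% of all regions. The smallest p was that of the Hmox1 promoter. It stood at -0.518% to 1.74% (median 0.0404%) in 10 control WT libraries and at -0.143% to 11.4% (median 1.22%) in 8 smoked WT libraries, a difference of 2.16 points (SE 0.846, limma adjusted p = 0.989). The groups overlapped, and 1 smoked library at 11.4% stood apart from the next at 2.92%. The largest promoter difference was at Gsr, from 9.90% ± 9.65 (n = 10) to 15.8% ± 8.43 (n = 8), within the spread of either group.

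The study called changed regions by size. Its rule, applied here without a minimum on read coverage because no read counts accompany the percents, asks that at least 33.3% of a region's cytosines change by over 5 points and that the mean change exceed 5 points. By that rule 1 of 77 member regions changed in smoked WT sperm, against 2.61% of all regions. It lay in Slc7a11, the cystine importer, in an intron of the longest transcript. This region (chr3:50007989-50008069) was nearer the far end of the gene record than its start. The level there was 18.7%, 37.2% and 77.0% (lowest, median and highest of 5 control WT libraries) and 27.7%, 40.6% and 69.3% in 5 smoked WT libraries, so the groups overlapped over almost their whole range.

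Recovery after CS was the second question, and the members again did not differ by the tests. The study collected its unexposed WT males at the end of the exposure period. Age and time since CS therefore cannot be told apart in these comparisons. In recovery 1, 2 and 3 against control WT, 0 of 55 member segments and 0 of 77 member regions were called in each comparison. Over all genes the shares called were 0%, 0% and 0.00703% of segments and 0%, 0.00318% and 0.0318% of regions. At an unadjusted p below 0.05, 1, 3 and 3 member segments (1.82%, 5.45% and 5.45%) and 4, 6 and 6 member regions (5.19%, 7.79% and 7.79%) passed. The shares over all genes were 4.61%, 3.93% and 5.95% of segments and 5.31%, 4.19% and 6.30% of regions. The members with the smallest p had small differences. In recovery 1 it was the Srxn1 promoter (1.28% ± 0.948, n = 9, against 0.530% ± 0.438, n = 10, adjusted p = 1.00) and a region of the Taldo1 promoter (0.123% against 1.55%, n = 7 each, adjusted p = 0.855). In recovery 2 it was the promoter of Prdx6, a peroxiredoxin, at 0.173% against 1.22% (n = 10 each, adjusted p = 1.00), and a region in the body of the export pump gene Abcc2, at 93.8% against 91.5% (adjusted p = 1.00). In recovery 3 it was the body of Abcc1, at 96.2% against 94.2% (n = 10 each, adjusted p = 0.819), and a body region of Sod2, at 0.609% (n = 8) against -0.143% (n = 9, adjusted p = 0.715). By size 1, 1 and 0 member regions changed in recovery 1, 2 and 3, against 3.4%, 2.53% and 4.1% of all regions.

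**Figure D2:**
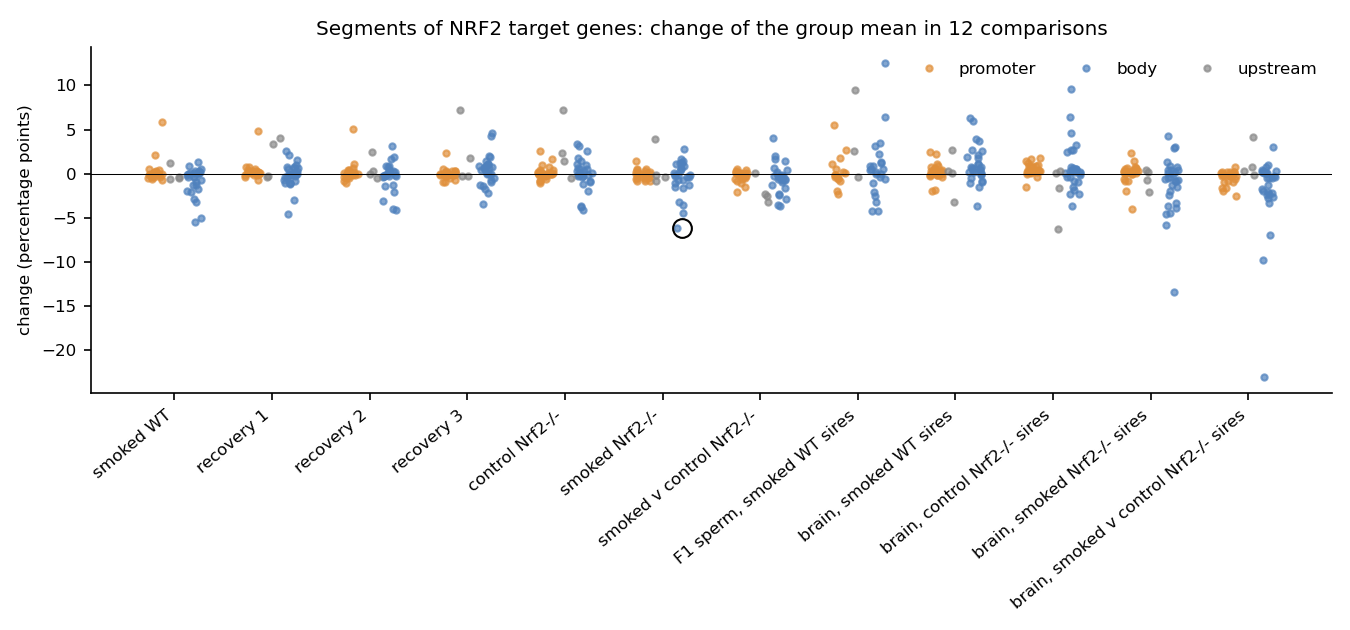
Change of the group mean, in percentage points, for every tested segment of the NRF2 target genes in 12 comparisons; the first 6 are against control WT F0 sperm, the eighth against sons of control WT sires and the ninth to eleventh against brain of sons of control WT sires. The ring marks the Tkt body in smoked Nrf2-/- sperm, at -6.14 points, which was the single call in 659 segment tests.

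The one call among the members came from the comparison of smoked Nrf2-/- with control WT sperm, which differ in both genotype and CS. In it 1 of 55 member segments was called, the body of Tkt, and 0 of 77 regions, with 6 segments and 8 regions at an unadjusted p below 0.05. Over all genes 0.172% of segments and 0.314% of regions were called. In control Nrf2-/- against control WT sperm 0 of 55 segments and 0 of 77 regions of the members were called, against 0.214% of segments and 0.374% of regions. At an unadjusted p below 0.05, 6 member segments (10.9%) passed in each of the comparisons, against 7.11% of all segments in control and 6.17% in smoked Nrf2-/- sperm. Of the regions 7.79% and 10.4% of the members passed, against 7.85% and 7.94% of all. Tkt encodes transketolase, an enzyme of the pentose phosphate pathway, which regenerates NADPH. Its body had 37.3% to 45.3% (median 41.3%) in 10 control WT libraries, 31.9% to 42.4% (median 37.9%) in 10 control Nrf2-/- libraries and 33.05% to 39.3% (median 34.8%) in 9 smoked Nrf2-/- libraries. The highest smoked Nrf2-/- libraries overlapped with the lowest control WT libraries. The difference was -6.14 points (SE 1.14, limma adjusted p = 0.00149, below the control mean in 9 of 9 libraries) in smoked and -3.73 points (SE 1.11, adjusted p = 0.230) in control Nrf2-/- sperm. Smoked and control Nrf2-/- sperm differed by -2.41 points (adjusted p = 0.885), and leaving out any 1 library kept the call in smoked Nrf2-/- sperm (adjusted p 0.000529 to 0.00743). The call was lost with a plain mean of the cytosines present (adjusted p = 0.169) and with the pair of groups alone in the fit (0.0612), while the control Nrf2-/- difference was called when 6 libraries of each group were required (adjusted p = 0.0264). With the segments counted from the start of the principal transcript, an alternative chosen after seeing the data, the smoked Nrf2-/- difference was -11.6 points over 27 cytosines (adjusted p = 0.00218).

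Within Tkt the lower level lay at the far end of the measured positions. The 21 cytosines between 1053 and 1361 bp from the start had group means of 0.169% to 1.00% in all 7 groups of F0 sperm, and 11 cytosines between 4690 and 10733 bp had 82.0% to 87.7%. The last 16 cytosines, 21322 to 21873 bp from the start (chr14:30569681-30570232), had plain means of 66.2%, 66.6%, 64.1%, 65.04% and 69.997% in the WT groups (control, smoked and recovery 1 to 3). They had 52.4% in control and 47.2% in smoked Nrf2-/- sperm. At 14 of the 16, both Nrf2-/- means lay below all 5 WT means. This stretch covers 1 coding exon of Tkt and reaches into the next. The exon it covers is shown with the CpGs that were scored in capitals (chr14:30569956-30570112, plus strand, the strand of the gene).
Tkt coding exon: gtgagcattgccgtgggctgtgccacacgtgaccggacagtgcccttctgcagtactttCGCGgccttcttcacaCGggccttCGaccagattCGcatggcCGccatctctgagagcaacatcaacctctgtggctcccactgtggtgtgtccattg
Of the 9 CpGs in this exon 6 were scored.

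With cytosines joined up to 300 bp apart, the alternative that makes these 16 cytosines 1 region, the block could be tested. The block had been singled out by its values in these same libraries, so its test is not independent evidence. It had 55.4% to 75.9% (median 65.1%) in 9 control WT libraries and 51.8% to 77.7% (median 66.8%) in 9 smoked WT libraries. In the recovery groups the lowest library was 59.3% and the highest 76.5%. It had 36.9% to 69.1% (median 51.3%) in 10 control Nrf2-/- libraries and 35.5% to 62.1% (median 43.5%) in 9 smoked Nrf2-/- libraries. Both Nrf2-/- groups thus reached far below the WT range, and both kept some libraries inside it. The difference from control WT was -20.0 points (SE 3.43, limma adjusted p = 0.000255) in smoked and -13.2 points (SE 3.34, adjusted p = 0.0486) in control Nrf2-/- sperm. Smoked and control Nrf2-/- sperm differed by -6.73 points at the block (SE 3.34, adjusted p = 0.823), which was not called. The difference from control WT was 0.0254 points in smoked WT sperm (adjusted p = 1.00). In this fit 1 of 108 member regions was called in each Nrf2-/- comparison, against 0.361% and 0.419% of 87370 regions. Leaving out 1 library at a time, the smoked Nrf2-/- call held each time (adjusted p at most 0.00138), while the control Nrf2-/- call was lost in 15 of 20 (0.0122 to 0.140). In brain, all 4 groups had 94.3% to 96.2% over 20 cytosines at this end of Tkt.

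**Figure D3:**
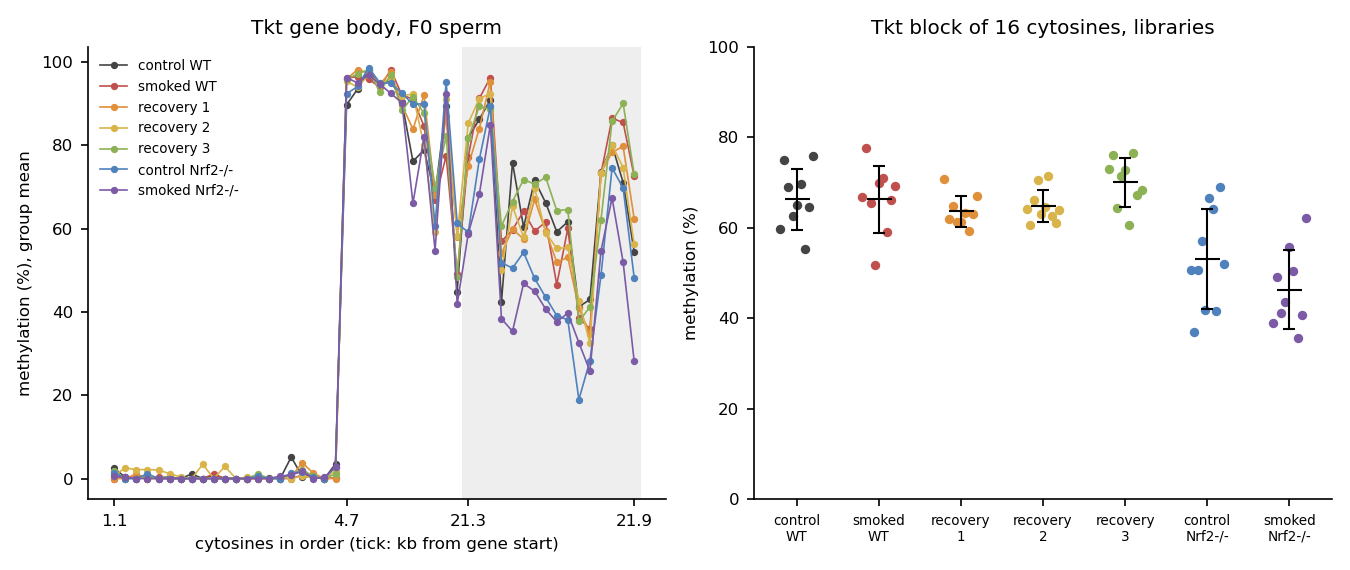
Left, group means of methylation percent at the 48 scored cytosines of the Tkt body in F0 sperm, in order along the gene; the shaded part is the block of 16 cytosines. Right, the block in each library (points) with mean and SD (bars); WT groups have means of 63.6% to 70.1%, control Nrf2-/- 53.1% and smoked Nrf2-/- 46.4%.

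Gclc and the glutathione transferase gene Gsta4 lie close together on chromosome 9, and each had a region lower in both Nrf2-/- groups that missed the threshold. The Gclc region sits before the start of the gene, and its sequence is shown with its 3 scored CpGs in capitals (chr9:77754020-77754137, plus strand).
Gclc promoter region: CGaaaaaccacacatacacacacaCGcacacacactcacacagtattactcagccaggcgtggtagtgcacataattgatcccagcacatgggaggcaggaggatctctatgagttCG
It had 38.3% to 49.8% (median 42.7%) in 10 control WT libraries, 33.1% to 40.1% (median 34.5%) in 10 control Nrf2-/- libraries and 31.99% to 40.7% (median 36.6%) in 9 smoked Nrf2-/- libraries. The means of the other WT groups were 42.8%, 42.6%, 43.0% and 41.9%. Control WT and Nrf2-/- libraries overlapped between 38.3% and 40.7%, and the lowest libraries of the other WT groups lay at 34.6%, 37.02%, 36.9% and 38.2%. The differences were -6.67 points (SE 1.80, limma adjusted p = 0.0903) and -6.15 points (SE 1.85, adjusted p = 0.185), and both passed without a mean-variance trend in the fit (adjusted p = 0.00842 and 0.0345). Over all alternatives the adjusted p ran from 0.00842 to 0.556 in control and from 0.0345 to 0.684 in smoked Nrf2-/- sperm.

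The Gsta4 region (chr9:78198646-78198768) lies in an intron. It had 5.14% to 33.5% (median 20.4%) in control WT, 4.35% to 16.7% (median 9.68%) in control Nrf2-/- and 2.44% to 21.1% (median 11.1%) in smoked Nrf2-/- libraries. The differences were -10.3 points (SE 2.77, adjusted p = 0.0865) and -8.45 points (SE 2.84, adjusted p = 0.307), with the groups overlapping. In brain the Gclc region stood at 50.9% to 52.9% in all 4 groups of sons. By size 4 member regions changed in each Nrf2-/- comparison, against 5.1% of all regions in control and 4.93% in smoked Nrf2-/- sperm. The regions of Gclc, Gsta4 and Slc7a11 were lower in both.

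**Figure D4:**
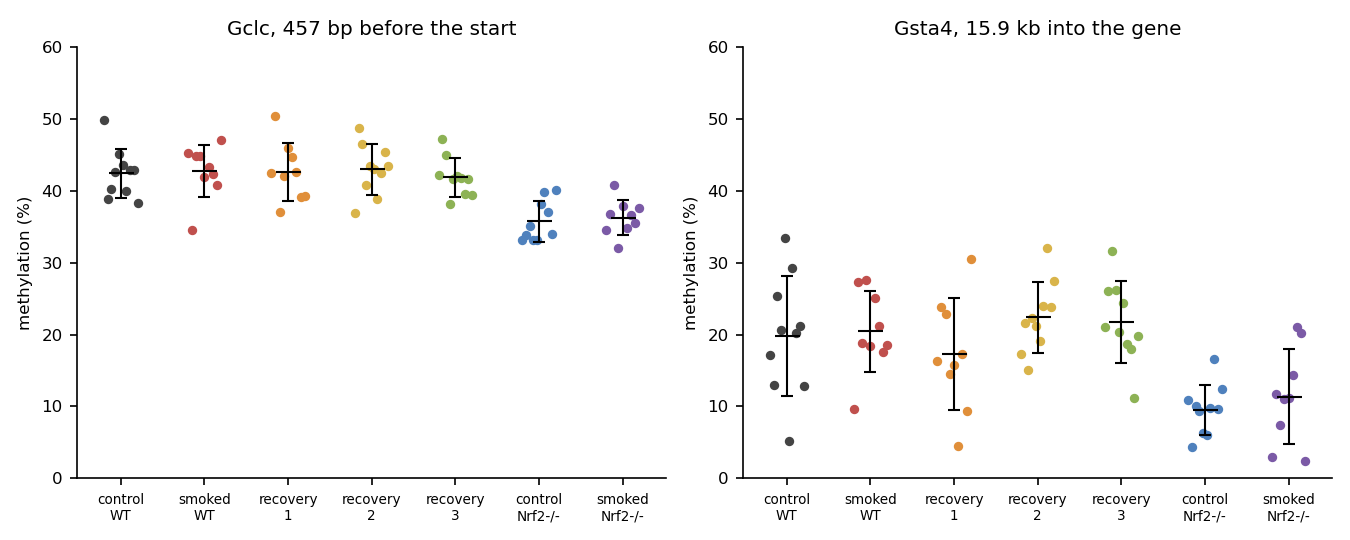
Methylation percent of the region before Gclc (left) and of the Gsta4 intron region (right) in each F0 sperm library (points), with group mean and SD (bars). The 5 WT groups have Gclc means of 41.9% to 43.0% against 35.7% and 36.3% in Nrf2-/- sperm, and the libraries of the genotypes overlap.

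CS exposure of Nrf2-/- males left the members without a call. Between smoked and control Nrf2-/- sperm 0 of 55 segments and 0 of 77 regions were called with limma (5 and 3, or 9.09% and 3.90%, at an unadjusted p below 0.05, against 5.49% and 5.79% of all), against 0% and 0.00637% over all genes. The smallest p belonged to the Akr1b8 promoter (0.465% ± 0.471, n = 9, against 2.56% ± 3.41, n = 10, adjusted p = 0.824) and to a promoter region of Me1 (-0.0620%, n = 7, against 1.22%, n = 8, adjusted p = 0.627). By size 3 of 77 regions changed, against 3.73% of all. The difference between the CS changes of the 2 genotypes, tested as its own contrast, was called in 0 of 55 member segments and 0 of 77 member regions, with 1 (1.82%) and 7 (9.09%) at an unadjusted p below 0.05, against 3.54% and 4.25% over all genes.

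Sons' sperm showed no call at the members. By limma 0 of 42 segments and 0 of 39 regions (3 and 2, or 7.14% and 5.13%, at an unadjusted p below 0.05, against 6.31% and 5.70% of all) differed between sons of smoked and of control WT sires, as over all genes (0% of 22810 segments and 0% of 33448 regions). The smallest p was at the promoter of thioredoxin, Txn1, with 1.12%, 1.67%, 2.23% and 4.58% in the 4 control libraries with a value and -0.205% to 1.18% (median 0.00507%) in 7 libraries of sons of smoked sires. The difference of -2.26 points (SE 0.564) had an adjusted p of 0.750 and was called when the promoter was narrowed to 500 bp (-3.01 points, adjusted p = 0.0277). The groups overlapped and all of these levels lie near 0. By size 5 of 39 member regions changed (4 higher, 1 lower), against 13.1% of all regions.

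F1 brain gave no member call either. Against sons of control WT sires, 0 of 58 segments and 0 of 95 regions were called in sons of smoked WT sires, of unexposed Nrf2-/- sires or of smoked Nrf2-/- sires, and the same held between smoked and control Nrf2-/- sires. The shares over all genes, in that order, were 0%, 0.00652%, 0.00326% and 0% of 30653 segments and 0%, 0.0148%, 0.021% and 0% of 80920 regions. At an unadjusted p below 0.05, 3, 6, 10 and 5 member segments (5.17%, 10.3%, 17.2% and 8.62%) passed, against 3.99%, 13.5%, 15.2% and 10.9% of all segments. For member regions the counts were 5, 10, 12 and 5 (5.26%, 10.5%, 12.6% and 5.26%), against 4.08%, 9.39%, 12.05% and 9.71% of all regions. The smallest p in sons of smoked WT sires was that of the Me1 body, at 54.5% to 65.7% (median 60.97%) in control and 59.5% to 73.5% (median 67.2%) in smoked libraries (6.29 points, SE 1.71, adjusted p = 1.00), followed among regions by Pgd, an NADPH-yielding dehydrogenase (91.8% against 86.6%, adjusted p = 1.00). In sons of control Nrf2-/- sires it was the Sqstm1 promoter, at 1.22% ± 0.846 against 0.238% ± 0.186 (n = 8 each, adjusted p = 0.306). In sons of smoked Nrf2-/- sires it was the Cat promoter, at 1.49% ± 1.23 against 0.0356% ± 0.278 (n = 8 each, no overlap, adjusted p = 0.280), and a region near the start of Tkt, at 2.78% against 0.758% (adjusted p = 0.272).

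Sons of smoked and of control Nrf2-/- sires differed most at Osgin1 and Aldh3a1, without a call. The Osgin1 body had 35.99% to 59.6% (median 47.98%) against 55.1% to 66.5% (median 58.7%), a difference of -9.77 points (SE 2.84, adjusted p = 0.253). The body of Aldh3a1, an aldehyde dehydrogenase, had 1.72% to 25.8% (median 10.1%) in 6 libraries against 11.1% to 49.4% (median 48.4%) in 5, and -23.1 points is the largest difference of any member segment in the 12 comparisons of exposure or sire (adjusted p = 0.289). The Nqo1 body differed by -6.93 points (58.8% against 65.7%, adjusted p = 0.316). By size 8 of 95 member regions changed, all lower in sons of smoked Nrf2-/- sires, against 16% of all regions. How many of all those regions were lower was not counted. The median change in this comparison was -0.395 points over all regions and -0.117 points over member regions. In the order given above, the other groups of sons had 4, 5 and 7 member regions changed by size against sons of control WT sires, where 8.33%, 7.53% and 13.6% of all regions passed. The mean over all scored cytosines was 34.3% ± 1.99 in sons of smoked Nrf2-/- sires and 35.99% ± 0.593 in sons of control Nrf2-/- sires (n = 8 each), and its part in these differences was not tested. The difference between the paternal CS changes of the sire genotypes was called in 0 of 58 segments and 0 of 95 regions of the members, with 7 (12.1%) and 7 (7.37%) at an unadjusted p below 0.05, against 11.7% and 9.44% of all.

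The regulators of the pathway, fixed as a list (Nfe2l2, Keap1, Cul3, Rbx1, Mafg, Maff, Mafk, Bach1, Bach2, Nfe2l1 and Nfe2), were tested in the same fits. They had 23 tested segments in F0 sperm, 20 in sperm of sons and 24 in brain, and 0 were called in any of the 12 comparisons of exposure or sire. At an unadjusted p below 0.05, 1 of 23 (4.35%) passed in smoked WT sperm and 2 (8.70%), 0 and 3 (13.04%) in recovery 1, 2 and 3, against 4.22%, 4.61%, 3.93% and 5.95% of all segments. In control Nrf2-/- and smoked Nrf2-/- sperm against control WT, and between smoked and control Nrf2-/- sperm, 1 (4.35%), 0 and 0 passed, against 7.11%, 6.17% and 5.49%. In sperm of sons it was 1 of 20 (5%), against 6.31%. In brain, in the order of comparisons given above, it was 1, 3, 3 and 2 of 24 (4.17%, 12.5%, 12.5% and 8.33%), against 3.99%, 13.5%, 15.2% and 10.9%.

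The tissues differed at many members, as at many other genes. Comparing brain with sperm of sons of control WT sires, 23 of 42 member segments were called (13 higher and 10 lower in brain), against 50.8% of 21904 segments. Of 35 member regions 18 were called (9 in each direction), against 56.8% of 30914 regions. The median absolute difference was 4.26 points over member segments and 3.30 over all segments, and 4.45 over member regions and 6.22 over all regions. The tissues were also separate library sets, and with F0 sperm of control WT males in place of F1 sperm more members could be scored: 37 of 57 segments (64.9%) and 43 of 85 regions (50.6%) were called, against 57.02% of 29591 segments and 61.6% of 71251 regions.

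**Figure D5:**
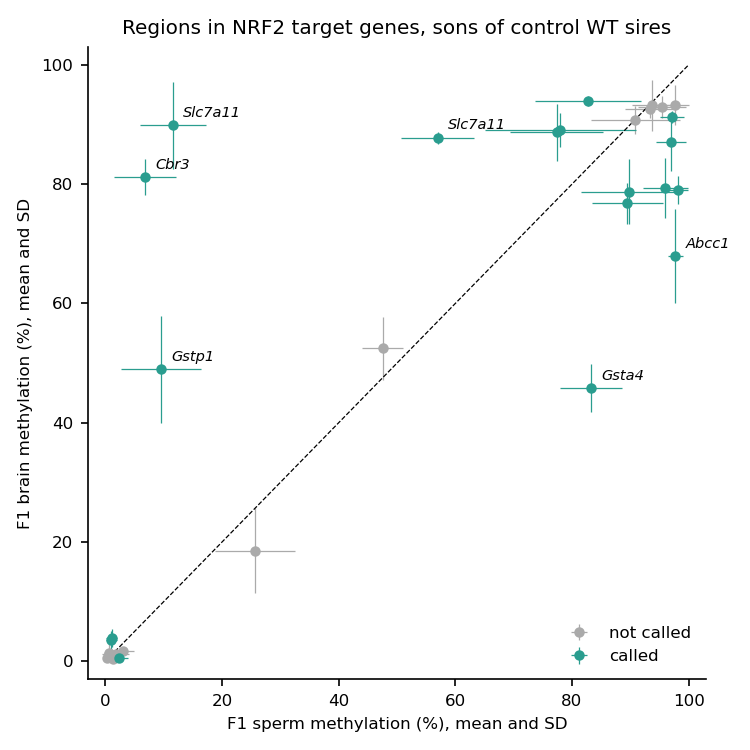
Methylation percent of the 35 member regions in F1 sperm (horizontal) and F1 brain (vertical) of sons of control WT sires, as means with SD over libraries; the dashed line marks equal levels. Regions more than 20 points off are named, from Slc7a11 (11.6% in sperm, 89.8% in brain) to Gsta4 (83.3% and 45.7%).

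Cbr3, which reduces carbonyls and quinones, showed the clearest case. Its 4 body cytosines (chr16:93690437-93690521) had 12.3%, 9.40%, 5.32% and -0.0622% in the 4 sperm libraries with a value and 77.1% to 85.8% (median 81.2%) in 8 brain libraries. The groups did not overlap, and the difference was 74.4 points (SE 2.63, limma adjusted p = 7.69e-12). In F0 control WT sperm the same positions stood at 4.81% ± 3.17 (n = 10). The Cbr3 promoter was near 0 in both tissues (0.358% ± 0.629 in F0 sperm, 1.19% ± 0.452 in brain).

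Slc7a11 held a pair of regions higher in brain, both in introns of its longest transcript. The gene record spans chr3:49892526-50443614 on the minus strand, and both regions lie nearer its far end than its start. Whether the principal transcript reaches these regions was not tested. In the first (chr3:49934464-49934560) sperm libraries had 7.03% to 19.9% (median 9.68%, n = 4) and brain libraries 79.4% to 99.2% (median 90.3%, n = 6), a difference of 78.3 points (SE 4.16, adjusted p = 7.64e-09). In the second (chr3:50026669-50026848) the levels were 56.96% ± 6.21 (n = 6) and 87.8% ± 1.02 (n = 8), a difference of 30.8 points (adjusted p = 4.77e-09). Another tested region of Slc7a11, close to the second, was not called. Its levels were 90.9% ± 7.61 in sperm (n = 6) and 90.8% ± 2.36 in brain (n = 8, limma adjusted p = 0.978).

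Among member regions in promoters, Gstp1, the pi-class glutathione transferase, had the largest tissue difference, at a region before its start. The sequence of that region is given with its 4 scored CpGs in capitals (chr19:4038334-4038425, minus strand, the strand of the gene).
Gstp1 promoter region: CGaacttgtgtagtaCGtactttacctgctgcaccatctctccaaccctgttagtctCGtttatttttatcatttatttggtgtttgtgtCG
Sperm libraries had 0.0785% to 16.3% (median 9.82%, n = 6) and brain libraries 36.5% to 59.2% (median 50.2%, n = 8). The groups were far apart, and the difference was 39.4 points (SE 4.07, adjusted p = 3.78e-07). Over the whole promoter, where more cytosines could be scored within each tissue, the level was 2.52% ± 1.39 in F0 sperm (20 cytosines, n = 9) and 8.58% ± 1.65 in brain (24 cytosines, n = 8).

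Among the heme and iron genes, Blvrb and Fth1 had called segments. The Blvrb promoter, of the gene for biliverdin reductase B, had 8.31% to 11.1% (median 10.5%) in 4 sperm libraries and 40.999% to 81.6% (median 72.0%) in 8 brain libraries at 3 cytosines (57.1 points, SE 6.65, adjusted p = 6.32e-06). At 22 cytosines scored in brain alone this promoter stood at 10.3% ± 2.09, so the 3 shared cytosines do not stand for it. The Fth1 body had -0.178% to 9.82% (median 0.822%, n = 4) in sperm and 35.7% to 49.8% (median 42.3%, n = 8) in brain (39.96 points, SE 2.85, adjusted p = 4.32e-08).

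Lower DNAme in brain was seen at regions of Gsta4, Abcc1, Prdx6, Gsr and Abcc2, the 5 largest falls among member regions. A Gsta4 intron region (chr9:78194456-78194527) had 75.1% to 89.7% (median 82.9%, n = 6) in sperm and 41.2% to 52.3% (median 44.2%, n = 8) in brain (-37.5 points, SE 2.58, adjusted p = 2.43e-09). A body region of Abcc1 (chr16:14472842-14472936) had 96.4% to 99.2% (n = 5) against 57.3% to 78.5% (n = 8), a difference of -29.8 points (SE 3.38, adjusted p = 1.91e-06). The Prdx6 body region, in an untranslated part, fell by 19.2 points (98.2% ± 1.68 to 78.9% ± 2.34, adjusted p = 2.17e-09), and a Gsr intron region by 16.6 points (96.0% ± 3.87 to 79.4% ± 5.05, adjusted p = 1.61e-05). The Abcc2 intron region fell by 12.7 points (89.5% ± 6.09 to 76.8% ± 3.44, adjusted p = 0.00051). Among the rises after Slc7a11, Cbr3 and Gstp1 came a region of Aox1, aldehyde oxidase, at 77.3% ± 7.99 in sperm and 88.7% ± 4.82 in brain (11.3 points, adjusted p = 0.00793).

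The largest segment fall of all was the Me1 body, from 87.9% ± 6.39 (n = 5) to 56.6% ± 3.46 (n = 8), or 31.3 points (adjusted p = 9.55e-08). It rests on the 5 cytosines scored in both tissues. Over the 15 cytosines scored in sperm of sons, the Me1 body of sons of control WT sires stood at 59.8% (n = 6). That level is within the range given above for control brain libraries. In control WT F0 sperm the Me1 body stood at 96.4% over 9 cytosines. The 5 shared cytosines therefore do not stand for the whole body in F1 sperm. The Sod2 body rose by 15.98 points (2.66% ± 1.61 to 18.6% ± 1.10) and the Slc7a11 body by 17.5 points, while the Abcc1 body fell by 16.5 points. The bodies of Gsta4, Pgd, Ephx1, Gsr, Txnrd1 and Gpx4 were lower in brain by 3.19 to 9.21 points, and those of Cat, Tkt and Abcc2 higher by 4.66 to 7.33 points. These differences hold for the cytosines scored in both tissues. With all cytosines scored in control WT F0 sperm and in brain, the bodies of Pgd, Tkt and Abcc2 kept their direction. The Txnrd1 body was then nearly equal, at 20.6% ± 0.780 (n = 10) in sperm and 20.2% ± 0.816 (n = 8) in brain. Other bodies went the other way (sperm, then brain): Gsta4 (70.7%, 75.5%), Ephx1 (48.5%, 57.8%), Gsr (45.3%, 50.1%), Gpx4 (2.11%, 6.27%) and Cat (96.1%, 91.5%). Promoters of Txn1 (2.38% to 0.571%), Sod1 (0.599% to 2.70%), Srxn1 (1.93% to 6.55%), and Abcc3 (11.1% to 16.05%) were called with differences of 1.81 to 4.96 points, and the Akr1b8 promoter rose by 14.1 points (0.943% to 15.1%). With all cytosines scored, the Txn1 promoter did not keep its fall (0.606% ± 0.745 in control WT F0 sperm, 0.720% ± 0.234 in brain, n = 8 each). The promoters of Sod1, Srxn1, Abcc3 and Akr1b8 kept their direction. Of the regulators, 11 of 19 segments were called between the tissues, against 50.8% of all segments, among them the Keap1 body (39.8 points higher in brain) and the Mafg body (38.7 points lower).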

How the data were processed

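The percent values were deposited by the authors as 1 table per group: per the labels, reads of MspI and TaqI digests were aligned to mm10 with Bismark (version not given in the sources used here), and each value gives how much of the coverage of a cytosine was methylated. No read counts accompany them, so depth is unknown and no counting intervals are given. Columns carry facility numbers that match no label, so they were mapped to groups only. 1 brain sample titled as a son of a control WT sire has the strain label NRF-/- and was kept by its title. Nothing says which samples share a cage or litter, and p-values measure the spread between samples.

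Genes were taken from GENCODE M21. Segments and regions needed at least 3 cytosines with a value in at least 4 libraries of each group, and a library at least 50% of them. Its mean was corrected for missing cytosines. Values were fitted with limma 3.58.1 (R 4.3.3), all groups of a set in 1 model with a mean-variance trend, with Benjamini-Hochberg adjustment over all genes. The fit was tested on simulated data. The member genes, lists and tests were chosen with earlier results of these data known. Named with values are called members, the smallest p in each comparison, the 5 largest region changes in each direction between tissues, promoters above 20% in control WT F0 sperm or brain (none) and motif matches near a usable cytosine. Other genes and ranges named were chosen after their values were seen. Alternatives varied the library and cytosine minimums, joining distance, promoter width, scale, trend, mean, centring, strand handling and libraries.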

Additional observations from a re-analysis of the deposited data

Results flagged for a closer look

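A library counted as far from the others where its gap to the next, divided by the range of the group, passed Dixon's critical value. Chance passes it in about 5% of groups of normally spread values, but most of these values lie near 0 and the features were chosen by their values, so the count is not to be read against that share. Of 113 groups of member values examined, 15 held such a library. The Hmox1 promoter accounted for 5: the highest library was 11.4% in smoked WT (next 2.92%), 6.30% in recovery 2 (1.11%), 4.02% in recovery 3 (1.69%), 2.36% in control Nrf2-/- (0.993%) and 2.98% in smoked Nrf2-/- sperm (0.303%). The Taldo1 promoter region had 4.77% in control WT (next 1.78%), 2.36% in recovery 2 (1.08%) and 3.65% in recovery 3 (1.56%). The Cat promoter in brain had 4.49% in sons of control Nrf2-/- sires (next 1.42%), 4.196% in sons of smoked Nrf2-/- sires (2.04%) and a lowest value of -0.518% in sons of control WT sires (-0.0260%). The Txn1 promoter reached 1.18% in sperm of sons of smoked sires (next 0.00507%). Of these libraries 2, both at Hmox1, lay above 5%.

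Low libraries were found at 3 methylated regions. The Gclc promoter region had 34.6% in 1 smoked WT library (next 40.9%). The Slc7a11 intron region had 20.02% in 1 recovery 1 library (next 41.5%), and a Tkt body region 54.2% in 1 smoked Nrf2-/- library (next 65.1%). The causes were not tested.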

How the results depend on the processing

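No paired analysis was possible because the columns carry no replicate number from the labels. Depth is unknown, and low promoter levels limit what a test of the promoters could show. The Tkt body call in smoked Nrf2-/- sperm fell to 0 member segments with a plain mean and with the 2 groups alone, and adjusted p over its alternatives ran from 0.00027 to 0.169. Control Nrf2-/- sperm gained 1 segment (Tkt) with at least 6 libraries and 1 region with the arcsine scale and without a trend (Gclc both times), and 1 with joining up to 300 bp (the Tkt block). Smoked Nrf2-/- sperm gained 1 region without a trend and 1 with joining up to 300 bp. Leaving out 1 library gave 0 to 1 member segments in control Nrf2-/- sperm, where the Gsta4 body was called without control WT library 6. F1 sperm had 1 segment, Txn1, with the promoter within 500 bp. Between tissues, at least 6 libraries left 8 segments and 5 regions, at least 10 cytosines 10 segments and at least 5 cytosines 10 regions, because fewer features were tested. F0 sperm in place of F1 sperm, chosen after seeing the data, gave 37 of 57 and 43 of 85, against 57.02% and 61.6% over all genes. Leaving out 1 library gave 23 to 27 segments and 17 to 23 regions.

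By size, a threshold of 10 points and joining up to 300 bp gave 0 and 3 member regions in smoked WT, 0 and 2 in recovery 1, and 0 and 3 in recovery 2 sperm. Recovery 3 gave 3 with the wider joining. Control Nrf2-/- sperm gave 2 and 9, smoked Nrf2-/- sperm 1 and 9, smoked against control Nrf2-/- sperm 1 and 9, and F1 sperm 1 and 9. Brain of sons of smoked WT sires gave 0 and 8, of control Nrf2-/- sires 0 and 9, of smoked Nrf2-/- sires 2 and 12, and smoked against control Nrf2-/- sires 5 at 10 points. The member regions tested were 77 for F0 sperm (108 with the wider joining), 95 for brain (122) and 39 for sperm of sons (48). Over all regions, 0.283% to 1.14% passed 10 points and 4.17% to 8.28% passed with the wider joining in F0 sperm. The shares were 2.27% and 19.7% in F1 sperm, and 0.870% to 5.25% and 9.47% to 16.9% in brain. Of the counts under alternatives, 259 stayed within 1.5 times the reported count and 38 moved. None of the 12 differences followed through the alternatives reversed its direction. The bodies of Gsta4, Ephx1, Gsr, Gpx4 and Cat were not among these, and as given above they went the other way between tissues with all cytosines scored. The causes were not tested.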
